A study of Mus musculus with 59 samples.

Results

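Basal-keratin-high and basal-keratin-low mammary tumors were compared: 30 of the 59 tumors of the series, 15 in each group. Each tumor received a score, the mean over the keratin genes Krt5, Krt14 and Krt17 and the transcription factor gene Trp63 of log2(scaled count + 1), where a scaled count is the number of reads on a gene relative to library size after the authors' scaling. The 15 tumors with the highest and the 15 with the lowest score formed the groups, and the other 29 are called middle tumors. The members were thus chosen by the measured levels of these 4 genes, which are given as a description. All 59 tumors came from mice named B6.FVB-Tg(MMTV-PyVT)634Mul/LellJ, which carried the PyMT transgene in the (+/-) state; this oncogene, from polyoma virus, is one that the mouse mammary tumor virus promoter drives mainly in mammary epithelium. The mice belonged to a vehicle (19 tumors), a methylparaben (20) or a propylparaben group (20); both parabens are ester preservatives, and doses, times and ages were not given in the sources used here. High-score tumors comprised 3 vehicle, 7 methylparaben and 5 propylparaben tumors. Low-score tumors comprised 7, 4 and 4, and middle tumors 9, 9 and 11. Total RNA came from frozen pieces of whole tumors, so fewer cells of a type and less RNA per cell cannot be told apart. The labels do not say that each tumor is from its own animal, so a p-value reflects only how far these samples spread.

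The mammary gland has an inner luminal layer, which secretes milk, and an outer basal layer of myoepithelial cells, which contract and rest on the basement membrane. Basal cells are marked by keratins 5, 14 and 17 and by p63, the product of Trp63, a member of the p53 family that maintains basal cells of stratified and glandular epithelia. They hold on to the basement membrane through hemidesmosomes, built from integrins, plectin, dystonin and collagen XVII bound to laminin, and to each other through desmosomes. PyMT tumors are mostly luminal, and the basal markers in a tumor piece can come from myoepithelial cells, from tumor cells with basal features, or from neighboring skin, which shares the same keratins.

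The sequences before the transcription start are shown for Krt5, the score gene with the largest difference between the groups, and for Col17a1, the gene outside the score with the smallest p, so that they can be read beside the DNA element that p63 and its relatives bind. Both are from RefSeq on GRCm38.p6, minus strand, written 5' to 3' and cut before the first annotated exon; of 19 genes looked up, 9 had an entry. Krt5 lies at chr15:101712906-101713155 and Col17a1 at chr19:47692095-47692292. Capitals mark matches to the p53-family half-site in Krt5 and to TATAAA in Col17a1.
Krt5: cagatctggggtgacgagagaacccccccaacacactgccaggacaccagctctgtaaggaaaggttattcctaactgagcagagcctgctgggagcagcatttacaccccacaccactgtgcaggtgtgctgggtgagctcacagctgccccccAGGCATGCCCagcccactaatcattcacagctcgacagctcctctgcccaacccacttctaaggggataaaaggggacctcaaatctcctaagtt
Col17a1: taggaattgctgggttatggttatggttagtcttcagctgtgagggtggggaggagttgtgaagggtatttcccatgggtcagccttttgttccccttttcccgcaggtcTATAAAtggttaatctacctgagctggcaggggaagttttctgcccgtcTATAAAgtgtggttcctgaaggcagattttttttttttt
The half-site is the 10-base element that p53, p63 and p73 bind in pairs; its match AGGCATGCCC in Krt5 lay 95 to 86 bases before the RefSeq start. Of the 9 genes with an entry only Krt5 held a half-site; Col17a1 had no match. TATAAA occurred in Col17a1 at 140 to 135 and at 91 to 86 bases before the RefSeq start. The 198 bases printed for Col17a1 end before the start annotated by GENCODE, which lies 52 bases upstream of the RefSeq start. These positions therefore do not count from the end of the printed sequence. On either strand of the 250 bases before 32851 starts, 7.13% held a half-site and 12.4% the element TATAAA. The AP-1 element TGANTCA (6.75% of all starts), GGGCGG (32.7%) and the CArG box of smooth muscle genes (1.47%) had no match before either gene, and matches to different elements did not overlap. A match describes letters and shows no binding.

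Score genes differed widely within and between the groups. The score ran from 3.06 in propylparaben replicate 12 to 6.15 in methylparaben replicate 20, with a median of 4.86. At the upper limit methylparaben replicate 9 had 5.091 and was in, and methylparaben replicate 11 had 5.081 and was out. At the lower limit methylparaben replicate 4 had 4.395 and was in, and propylparaben replicate 3 had 4.507 and was out. Krt5, the type II keratin of basal cells (chromosome 15, 101707070 to 101712898, overlapped on the other strand by Gm44323), had a lowest, median and highest scaled count of 13.98, 73.0 and 98.9 in high-score tumors. In low-score tumors the same values were 3.08, 18.3 and 46.7. 13 of the high-score tumors lay above every low-score tumor, and vehicle replicate 14 was the lowest of the high group. Krt14, the type I partner of keratin 5 (chromosome 11, 100203162 to 100207548), was at 51.7, 81.9 and 163 in high-score tumors and at 17.8, 41.6 and 130 in low-score tumors. Krt17, a type I keratin of basal cells and of skin appendages (chromosome 11, 100256217 to 100261029), was at 5.36, 11.9 and 37.7 against 0.646, 5.45 and 19.3. Trp63 (chromosome 16, 25683763 to 25892102) was at 20.995, 36.3 and 48.7 against 5.01, 17.6 and 36.9. Each of these 4 genes overlapped between the groups.

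**Figure D1:**
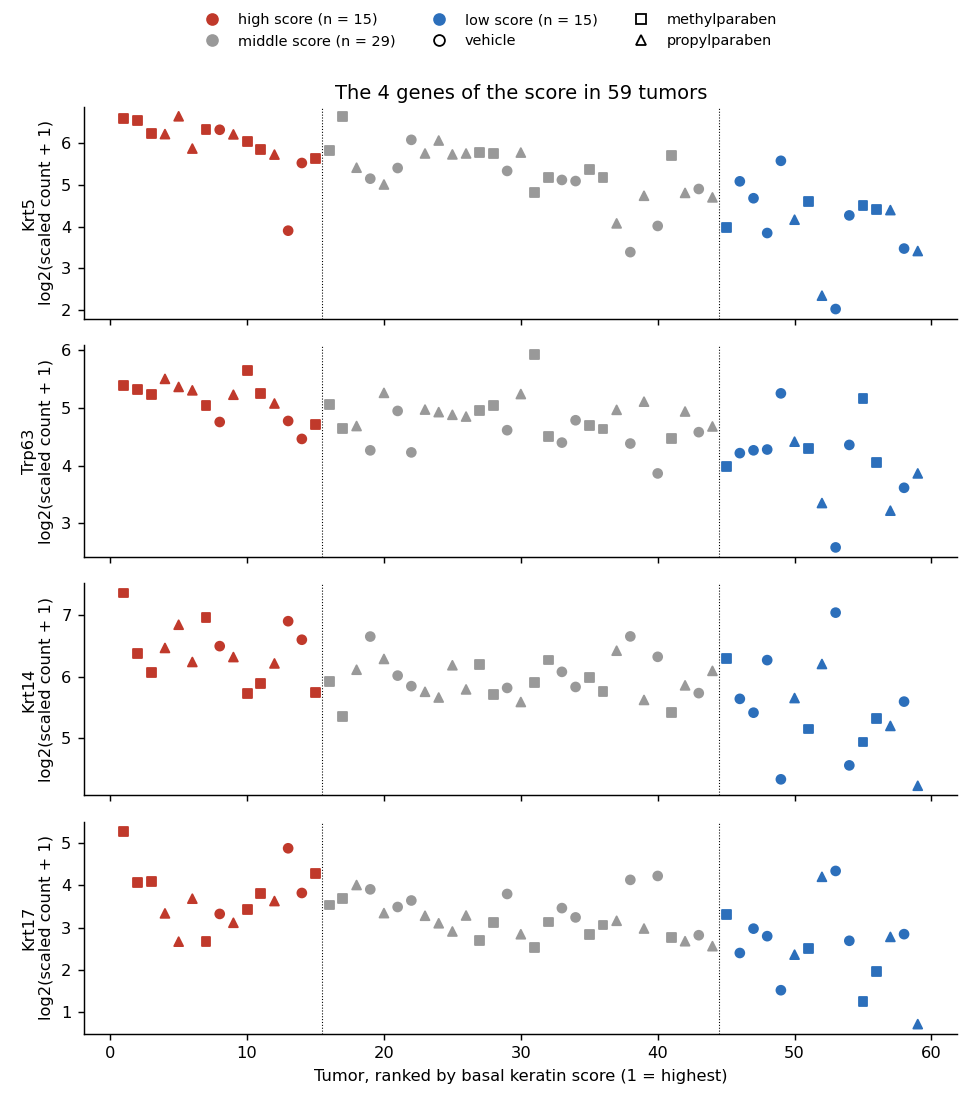
Levels of the 4 score genes, as log2(scaled count + 1), in each of 59 tumors ordered by score rank; color gives the score group, the symbol the treatment, and dotted lines mark the limits of the groups. Krt5 and Trp63 decline along the ranks, and vehicle replicate 10 at rank 53 has low Krt5 (3.08) beside high Krt14 (130).

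Over all 59 tumors the 4 genes moved as pairs rather than as 1 set, and this was weaker without 7 of the libraries. Over 59 tumors Pearson's r was 0.72 between Krt5 and Trp63 and 0.69 between Krt14 and Krt17, whereas it was 0.11 between Krt5 and Krt14, 0.11 between Krt5 and Krt17, 0.10 between Krt14 and Trp63 and -0.01 between Krt17 and Trp63. Spearman's rho was 0.65 and 0.55 for the pairs and between 0.04 and 0.19 for the other combinations. These values describe genes measured in the same libraries and have no test. Vehicle replicate 10 was a low-score tumor with Krt14 at 130 and Krt17 at 19.3, the highest of its group, and with Krt5 at 3.08 and Trp63 at 5.01, the lowest. Vehicle replicate 14 was a high-score tumor with Krt5 at 13.98 beside Krt14 at 118 and Krt17 at 28.4. Both are among the 7 libraries with the lowest values on the first principal component of all genes (vehicle replicates 7, 8, 10, 13, 14 and 19 and propylparaben replicate 1). The low end is the one with high mitosis scores. No gap bounded this set: its last member, vehicle replicate 13, was at -36.3 and the next library, vehicle replicate 1, at -31.8. Methylparaben replicate 5 lay at 56.3, at the other end. The 7 libraries comprised 2 high, 2 low and 3 middle tumors. Without them (n = 52) the correlation of Krt5 with Krt14 was 0.46 and with Krt17 0.53, and those of Trp63 were 0.36 and 0.27. The pairs were then at 0.65 (Krt5 with Trp63) and 0.64 (Krt14 with Krt17).

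**Figure D2:**
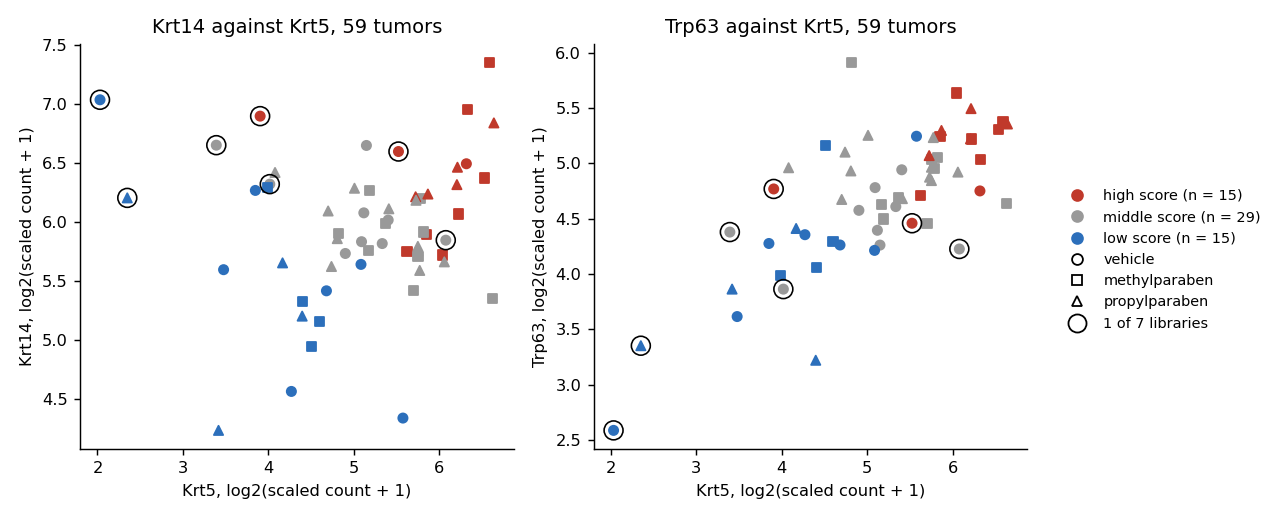
Krt14 and Trp63 against Krt5, as log2(scaled count + 1), in 59 tumors. Rings mark the 7 libraries with the lowest values on the first principal component. Krt5 and Trp63 rise together (r = 0.72), and the ringed libraries include tumors with low Krt5 beside high Krt14.

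The treatment label was not used by the score. Its make-up did not differ detectably between the groups (Fisher's exact test, p = 0.346). Scores averaged 4.60 ± 0.417 (SD, n = 19) in vehicle, 4.89 ± 0.539 (n = 20) in methylparaben and 4.72 ± 0.576 (n = 20) in propylparaben tumors. The difference of methylparaben from vehicle was 0.286 (permutation test, two-sided, p = 0.072, adjusted over 3 comparisons 0.216). Propylparaben differed from vehicle by 0.121 (adjusted p = 0.464) and from methylparaben by -0.166 (adjusted p = 0.464).

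Library measures moved with the groups in part. Libraries held 1166502 to 2032789 reads on genes. The mitochondrial share was 3.41% ± 0.489 (SD, n = 15) in high-score and 4.71% ± 2.18 (n = 15) in low-score tumors (permutation test, adjusted over 6 measures p = 0.0287), and the scaling factor 1.02 ± 0.0395 against 0.957 ± 0.0905 (adjusted p = 0.0497). Reads aligned to several places made up 12.5% against 13.3% (adjusted p = 0.0837). Reads outside annotated features (17.8% and 19.8%), intronic reads per 100 gene reads (32.5 and 37.3) and depth had adjusted p from 0.342 to 0.439. Of 5 libraries with a scaling factor under 0.9, 4 were low-score tumors (vehicle replicates 1 and 2, methylparaben replicates 1 and 5), none was a high-score tumor and 1 was a middle tumor. Methylparaben replicate 5 also held summed levels of 17910 for 12 adipocyte genes and 7966 for 9 skeletal muscle genes, against at most 1352 and 1280 in the high group. The group medians were nevertheless higher in high-score tumors: 433 against 337.5 for adipocyte and 97.1 against 8.49 for skeletal muscle genes. Of the 9 muscle genes 6 were higher in the high group, with a median log2 difference of 0.01. Without the libraries with a low scaling factor the difference in mitochondrial share was -0.368 points (permutation test, adjusted p = 0.247).

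Outside the score, 12 of 14533 tested genes (0.0826%) passed between the groups (limma with the treatment label as covariate, Benjamini-Hochberg adjusted p under 0.05): 11 were higher (0.0757%) and 1 lower (0.00688%) in high-score tumors. No tested gene had groups without overlap (0.0% of 14533). Genes of attachment to the basement membrane and of cell-cell junctions were among the higher genes, and the groups differ by construction in basal markers of the same libraries, so the direction of further basal genes is not independent of the score.

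Among attachment genes, Col17a1, which encodes the membrane-spanning collagen of hemidesmosomes (chromosome 19, 47646344 to 47692094), had a lowest, median and highest scaled count of 4.66, 13.7 and 26.7 in high-score and 0.771, 3.47 and 9.30 in low-score tumors. All but 2 high-score tumors lay above the whole low group; vehicle replicate 14 was the lowest of the high group and methylparaben replicate 5 the highest of the low group. The log2 difference was 1.59 ± 0.23 (SE; limma, adjusted p = 9.89e-04). Lama3, the alpha chain of the laminin that hemidesmosomes bind (chromosome 18, 12333819 to 12583013, with small genes on both strands inside it), was at 3.71, 11.1 and 18.7 against 0, 3.71 and 8.56. 10 high-score tumors lay above the low group, and the log2 difference was 1.45 ± 0.26 (limma, adjusted p = 0.0105).

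Among junction genes, Pkp1, a plakophilin of the desmosomal plaque (chromosome 1, 135871395 to 135919207), was at 5.08, 11.4 and 35.3 in high-score and at 1.29, 4.62 and 8.81 in low-score tumors. 13 high-score tumors lay above the low group, and the log2 difference was 1.16 ± 0.21 (limma, adjusted p = 0.0105). Dsc3, a desmosomal cadherin (chromosome 18, 19960930 to 20002351), was at 0.758, 2.12 and 8.66 against 0, 0.428 and 1.02 (log2 1.30 ± 0.24, limma, adjusted p = 0.0105). Its highest values were in methylparaben replicates 10 (8.66), 20 (8.22) and 6 (7.08), and the next high-score tumor was vehicle replicate 17 (3.01). Those 3 had the highest summed levels of skin cornification genes (1270, 583 and 409). The middle tumors vehicle replicate 13, methylparaben replicate 7 and vehicle replicate 18, with sums of 353, 324 and 312, had Dsc3 at 0.985, 6.93 and 1.40. The mean of Dsc3 was under the limit of 5 for naming, so the gene is named after its values were seen. Cdh3, which encodes P-cadherin of basal cells (chromosome 8, 106510891 to 106557297), was at 1.65, 4.44 and 7.87 against 0, 1.99 and 6.54 (log2 1.20 ± 0.23, limma, adjusted p = 0.0159). Dsc3 and Cdh3 rest on few reads per tumor.

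Further higher genes act at the surface, in the matrix or in the secretory pathway. Pdpn, a membrane glycoprotein of myoepithelial cells, fibroblasts and lymphatic vessels (chromosome 4, 143267431 to 143299564), was at 80.3, 98.8 and 138 in high-score and at 23.0, 63.7 and 106 in low-score tumors (log2 0.93 ± 0.17, limma, adjusted p = 0.0105). 13 low-score tumors lay below the whole high group. Cntn2, a cell adhesion molecule known from neurons (chromosome 1, 132509427 to 132543256), was at 5.36, 22.6 and 42.7 against 1.13, 7.71 and 15.7 and had the largest difference of the 12 genes, 1.62 ± 0.29 on the log2 scale (limma, adjusted p = 0.0105). Sostdc1, a secreted antagonist of bone morphogenetic proteins and modulator of Wnt signaling (chromosome 12, 36314139 to 36318452), was at 5.65, 13.5 and 25.6 against 0, 5.07 and 15.97 (log2 1.32 ± 0.27, limma, adjusted p = 0.0346). It did not pass in 16 of the 30 fits that each left out 1 tumor, with an adjusted p of up to 0.0864 (without propylparaben replicate 15). Moxd1, a copper-dependent monooxygenase relative (chromosome 10, 24223517 to 24302790), was at 42.0, 68.4 and 132 against 14.2, 40.2 and 68.6 (log2 1.09 ± 0.21, limma, adjusted p = 0.0159; 0.0587 without methylparaben replicate 1). Vwa1, a matrix protein (chromosome 4, 155768149 to 155774698, overlapped on the other strand by Atad3aos and Gm26840), was at 20.2, 38.0 and 56.04 against 12.9, 26.8 and 33.7 (log2 0.72 ± 0.14, limma, adjusted p = 0.0240). It did not pass without methylparaben replicate 1 or 4, propylparaben replicate 7, 12 or 15 or vehicle replicate 17, each left out alone (adjusted p of up to 0.0732).

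Coa3, an assembly factor of mitochondrial cytochrome c oxidase (chromosome 11, 101277968 to 101279114, overlapped on the other strand by Cntd1), was the gene that was lower in high-score tumors. It was at 39.3, 50.4 and 65.1 there and at 55.1, 66.2 and 99.1 in low-score tumors (log2 -0.42 ± 0.08, limma, adjusted p = 0.0271). All 15 high-score tumors lay below the median of the low group, and vehicle replicate 1 was the highest of the low group. Coa3 did not pass without methylparaben replicate 1, 6, 9 or 14 or propylparaben replicate 6, 7, 14 or 15, each left out alone (adjusted p of up to 0.0825). Mitochondrial reads were also lower in high-score tumors (3.41% against 4.71%), and their part in this result was not tested. Without the 4 low-score libraries with a low scaling factor that difference shrank to -0.368 points, and Coa3, at -0.41, had an adjusted p of 0.0537 (limma).

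**Figure D3:**
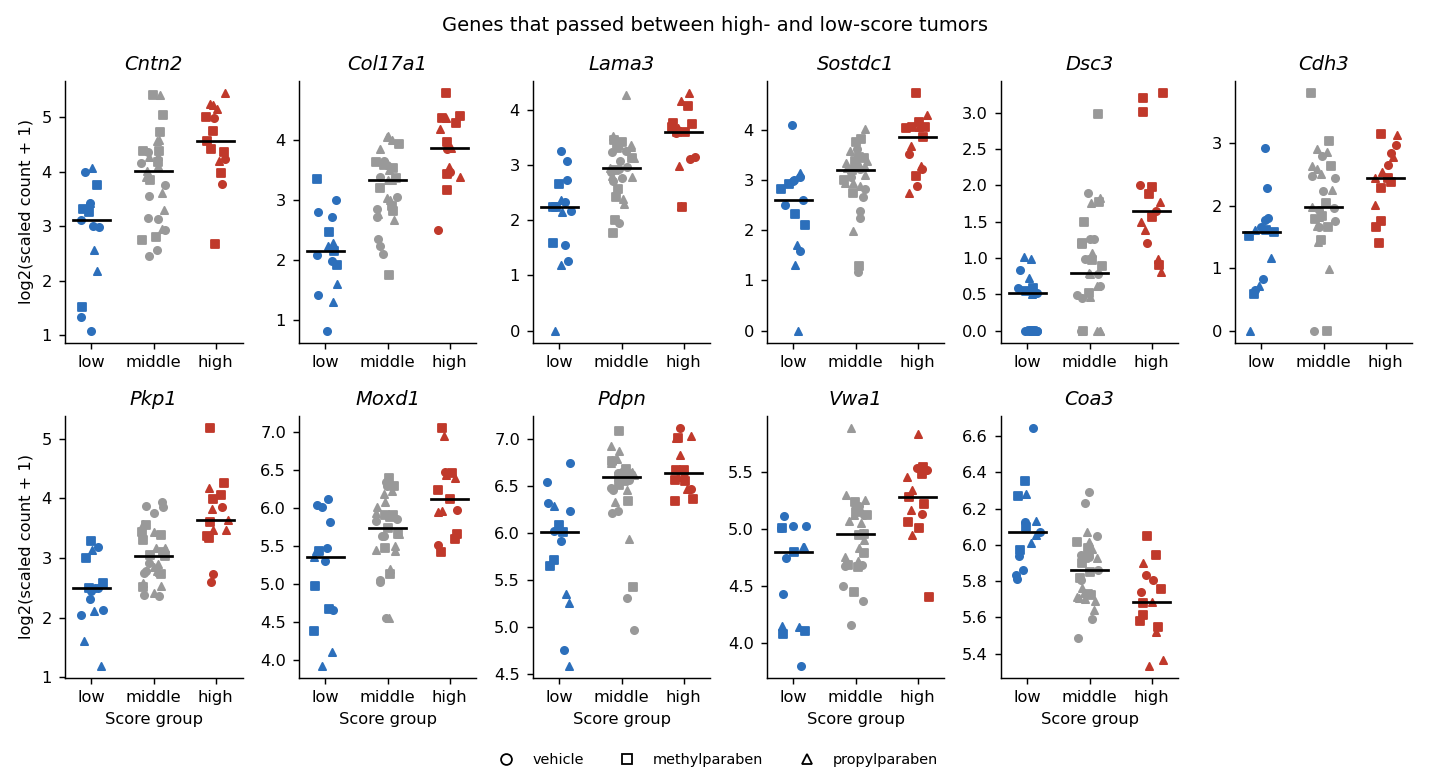
Levels, as log2(scaled count + 1), of 11 of the 12 genes that passed, in low-score (n = 15), middle (n = 29) and high-score (n = 15) tumors; symbols give the treatment and bars the median. The high and low groups overlap for each gene shown, and the middle tumors span the range between them.

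The calls depended on a few libraries and on the makeup of the score. Without the 7 libraries named above, a set that no gap bounded, 90 of 14592 genes passed (0.617%), among them all 12. Without the low scaling factors, 5 of 14359 passed (0.0348%), and these were Col17a1, Pdpn, Cntn2, Lama3 and Cdh3. With the skin cornification score as covariate all 12 passed, and with 6 tissue scores as covariates 3 did. These 6 scores are the mean log2 levels of the fibroblast, adipocyte, skeletal muscle, macrophage, T and NK cell, and B and plasma cell lists. With Krt5 left out of the score 14 genes passed, 4 of them among the 12, and with Trp63 left out 9 passed, 6 of them among the 12.

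The 29 middle tumors were used by neither group. Against their score, 10 of the 12 genes had a slope of the same sign as their group difference, beside 49.9% of all 14533 genes. The slopes, in log2 per unit of score, were 1.98 ± 0.79 for Cdh3 (unadjusted p = 0.0183), 1.26 ± 0.52 for Lama3 (0.0223), 1.20 ± 0.47 for Moxd1 (0.0147) and 1.15 ± 0.58 for Col17a1 (0.0547), all by limma. Pdpn (-0.31 ± 0.46) and Coa3 (0.04 ± 0.21) had slopes of the opposite sign. No gene passed after adjustment in these tumors (limma, 0.0% of 14533; 480, or 3.3%, had an unadjusted p under 0.05, and the smallest adjusted p was 0.117).

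By treatment, Col17a1 differed by 1.15 ± 0.41 in vehicle, 1.59 ± 0.37 in methylparaben and 2.02 ± 0.40 in propylparaben tumors on the log2 scale, a description from the same tumors that gave the call. The dependence of the difference on treatment did not pass for any gene (limma interaction, 0.0% of 14533; 1472, or 10.1%, had an unadjusted p under 0.05, and the smallest adjusted p was 0.168), and the vehicle high group held 3 tumors. Within treatments the difference passed for 189 genes (1.3%) in propylparaben, 2 (0.0138%) in methylparaben and 0 (0.0%) in vehicle tumors (limma). Intronic reads, which are other reads of the same libraries, had the same sign as the gene for 10 of 10 called genes that were tested, beside 63.3% of 11578 genes. Of 14283 genes' introns 2 passed (0.014%): Cntn2, at 1.89 (limma, adjusted p = 0.0475), and Ephb1, an ephrin receptor gene named after its values were seen, at 1.24 (limma, adjusted p = 0.0475). With a pseudocount of 0.5 none passed, and with a mean of at least 10 only 1 did.

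Smooth muscle genes of myoepithelial contraction lay above 0 for 10 of 10 members, beside 48.4% of all genes, with a median log2 difference of 1.16 beside -0.0074 over all tested genes. None passed, and 9 had an unadjusted p under 0.05 on the high side, beside 5.49% of all genes. Cnn1, the actin-binding calponin of smooth muscle, was at 23.2, 71.0 and 173 in high-score and at 3.43, 20.6 and 54.9 in low-score tumors (log2 1.69 ± 0.37, limma, adjusted p = 0.0590). Acta2, smooth muscle actin, was at 124, 288 and 742 against 58.3, 160 and 333 (log2 1.18 ± 0.27, limma, adjusted p = 0.0590). Myh11, smooth muscle myosin, was at 18.2, 54.5 and 204 against 4.50, 23.8 and 57.4 (log2 1.502 ± 0.38, limma, adjusted p = 0.1001). Oxtr, the oxytocin receptor that triggers milk ejection, was at 14.5, 40.1 and 85.7 against 5.01, 17.2 and 53.1 (log2 0.89 ± 0.31, limma, adjusted p = 0.272). Methylparaben replicate 20, which had the highest score, had the lowest Acta2 and Cnn1 of the high group, and methylparaben replicate 9, the last tumor admitted to it, had the highest. Without the 7 libraries 4 of the 10 passed, with DESeq2 (0.564% of all genes) 4, and without the low scaling factors 0. When Krt14 or Krt17 was left out of the score, 8 and 9 passed; when Krt5 was left out, 0 passed and the median was 0.57.

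Further basal genes lay above 0 for 11 of 12 tested members (14 in the list), beside 48.4% of all genes, with a median of 0.76. Pdpn and Cdh3 passed, beside 0.0757% of all genes, and 10 were higher at an unadjusted p under 0.05, beside 5.49%. With Krt5 left out of the score 1 of 13 passed, 5 had such a p and the median was 0.36. With 6 tissue scores as covariates 0 of 12 passed (median 0.58). Without the 7 libraries 5 of 13 passed, and with Krt14 left out of the score 6 did. Krt15, a keratin of basal stem-like cells whose sequence is close to Krt14, was at 3.90, 9.59 and 37.5 in high-score and at 0.563, 3.55 and 25.05 in low-score tumors (log2 1.21 ± 0.37, limma, adjusted p = 0.190). Egfr, the epidermal growth factor receptor, was at a median of 61.4 against 64.0. Of the 10 hemidesmosome and basement membrane genes, 8 lay above 0 (median 0.37), and Col17a1 and Lama3 were among those that passed, beside the same shares of all genes. With Krt5 left out of the score 1 passed (median 0.23), and with Krt14 left out 3 did (0.40). The integrin gene Itgb4, at a median of 22.3 against 13.9, differed by 0.47 ± 0.17 (limma, adjusted p = 0.273).

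Markers of skin were present in some high-score and some middle tumors. All 10 tested of 15 cornification genes lay above 0 (median 0.67), beside 48.4% of all genes. Of these, 1 was higher at an unadjusted p under 0.05, beside 5.49% of all genes, and none passed. Their summed level ran from 73.3 to 1270 in high-score and from 54.8 to 221 in low-score tumors, with medians of 177 and 129. Methylparaben replicates 10 (1270), 20 (583) and 6 (409) were highest, followed by the middle tumors vehicle replicate 13 (353), methylparaben replicate 7 (324) and vehicle replicate 18 (312). Krt10, a keratin of differentiated epidermis, had a highest value of 620 in the high group and 23.4 in the low group, with medians of 14.5 and 11.6. Krt1, its partner, reached 108 against 0.496, with medians of 0.432 and 0. Hair follicle genes summed to 852 in methylparaben replicate 20 and to 89.9 in methylparaben replicate 15, against at most 9.74 in the low group, and the group medians were 4.87 and 3.98. The middle tumors vehicle replicates 18 (241), 13 (173) and 9 (133) lay above methylparaben replicate 15. Krt6a, a keratin of wounds and hair follicles with a near-identical copy, Krt6b, that makes its count uncertain, was at 5.47, 14.3 and 339 against 1.02, 11.2 and 36.6 (log2 1.01 ± 0.46, limma, adjusted p = 0.437). Methylparaben replicate 20, which had the highest Krt14, Krt17 and Pkp1 of all high-score tumors, is thus also the one with the most hair follicle signal.

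Genes of the Notch pathway, which acts in the choice between luminal and basal fate, lay above 0 for 11 of 12 tested members (median 0.36), beside 48.4% of all genes, and 7 were higher at an unadjusted p under 0.05, beside 5.49%; none passed. Jag2, a Notch ligand, was at 1.52, 3.45 and 8.25 in high-score and 0, 1.28 and 5.31 in low-score tumors (log2 0.94 ± 0.25, limma, adjusted p = 0.107). The target gene Hes1 had medians of 155 and 147 (log2 0.35 ± 0.10, limma, adjusted p = 0.158), and the receptor gene Notch3 55.6 and 43.3 (log2 0.41 ± 0.13, limma, adjusted p = 0.222).

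No luminal gene of the lists passed between the groups, and 48.4% of all tested genes lay above 0. Of 13 luminal keratin and junction genes 12 lay above 0, with a median of 0.19, and none passed. Krt8 had medians of 77.9 and 76.9 (log2 0.19 ± 0.14), Krt18 of 159 and 138 (0.25 ± 0.13) and Krt19 of 162 and 123 (0.30 ± 0.24). The mucin gene Muc1 differed by 0.41 ± 0.16 (limma, adjusted p = 0.352). Hormone-sensing genes lay above 0 for 6 of 10, and for 1 of 10 when Krt5 was left out of the score; none passed. Esr1, the estrogen receptor gene, ran from 4.35 to 32.1 (median 16.6) in high-score and from 3.47 to 44.49 (median 12.9) in low-score tumors. The progesterone receptor gene Pgr ran from 5.51 to 56.7 (median 26.5) and from 1.93 to 110 (median 17.4). The fitted log2 differences of Esr1 (-0.04) and Pgr (-0.06) had the sign opposite to that of their medians, and both turned sign in some alternatives. Gata3, a luminal transcription factor, had medians of 474 and 388. Milk and alveolar genes lay above 0 for 3 of 10 (median -0.11), but for 9 of 10 without the 7 libraries (median 0.19). The count was 6 of 10 without the low scaling factors (0.07) and 8 of 10 without both sets (0.22). Csn2, a casein, had medians of 1.82 and 2.14, Elf5, an alveolar transcription factor, of 118 and 111, and Btn1a1, a milk fat globule protein, of 54.4 and 32.8 (log2 0.84 ± 0.26, limma, adjusted p = 0.201).

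Stromal and proliferation lists held no gene that passed, and their counts above 0 stand beside 48.4% of all tested genes. Fibroblast genes lay above 0 for 13 of 14 (median 0.26; Col1a1, a collagen, 0.28 ± 0.26). Their median was 0.51 without the 7 libraries, but -0.12 (3 of 14 above 0) with Krt5 left out of the score. With 6 tissue scores as covariates it was -0.05 (6 of 14). The fibroblast list is itself among those scores, so that fit moves its median toward 0 by construction. Macrophage genes lay above 0 for 10 of 10 (median 0.11), with a median of 0.39 without the 7 libraries and -0.13 (1 of 10) with Krt5 left out. With the tissue scores, which likewise include the macrophage list itself, the median was -0.05 (4 of 10). Mesenchymal genes lay above 0 for 9 of 11 (median 0.25; the filament gene Vim 0.25 ± 0.18), and for 6 of 11 (0.01) with Krt5 left out. Adipocyte genes lay below 0 for 12 of 12 (limma, median -0.28). Without the low scaling factors, among them methylparaben replicate 5, 11 of 12 lay above 0 (median 0.37), without the 7 libraries 3 did (-0.09), and without both sets 12 did (0.72). Of 18 mitosis genes 4 lay above 0 (median -0.06). None lay above 0 without the low scaling factors (-0.28), or without both sets (-0.35), where 10 were lower at an unadjusted p under 0.05, whereas 17 lay above 0 with Krt5 (0.28) and 13 with Trp63 (0.12) left out of the score. Mki67, a marker of dividing cells, had medians of 53.2 and 65.4 (log2 -0.23 ± 0.18).

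**Figure D4:**
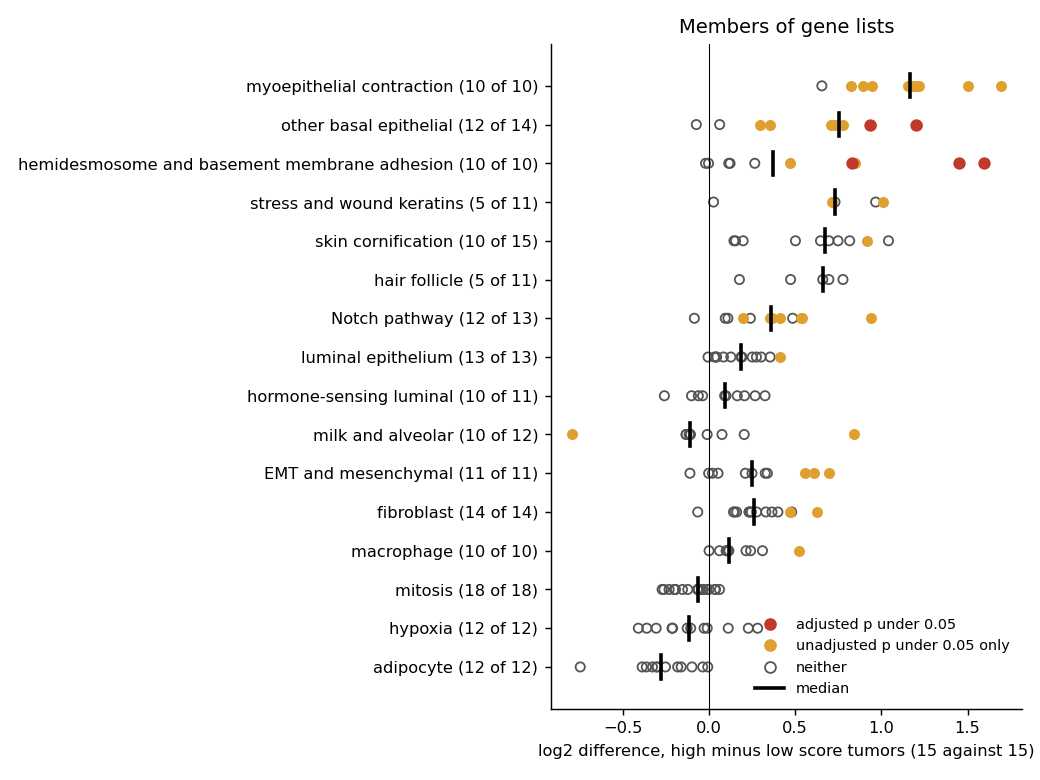
Log2 differences between high- and low-score tumors for the tested members of 16 gene lists, with the number tested of the number listed; color gives the p class and black bars the median. Contraction genes center on 1.16 without a gene that passed, and red points, the genes that passed, lie in the hemidesmosome and other basal lists.

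The genes whose levels were most like the score over all 59 tumors, by Pearson's r among 11040 genes with a mean of at least 5, were Pkp1 (0.74), Col17a1 (0.72), Actn1 (0.69), Moxd1 (0.68), Lama3 (0.66), Cntn2 (0.65), Nectin1 (0.63), Sdc1 (0.63), Flna (0.63) and Cep170b (0.62). Spearman's rho for them lay between 0.50 and 0.73, and the median r of all genes was -0.01. The score also made the groups, so the likeness is no support for a difference between them. Actn1 and Flna crosslink actin, Nectin1 is a junction protein and Sdc1 a cell surface proteoglycan; their adjusted p between the groups (limma) was 0.0587, 0.0684, 0.0730 and 0.176.

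Chromosome 11 carries Krt14, Krt17 and Coa3 and was looked at after the gene results were seen. Of the 20 genes with the smallest p among those lower in high-score tumors, 12 lie on it, among them Ccdc117 (-0.44), Pwwp2a (-0.38) and Supt4a (-0.54 on the log2 scale). Of its 1155 tested genes 150 (12.99%) were lower at an unadjusted p under 0.05, beside 4.67% of all genes, and their median log2 difference was -0.09. A level per tumor, the median log2 deviation of 745 of its genes from their mean over tumors less that of all genes, had an SD of 0.0936 over 59 tumors, and its correlation with the same level from introns was 0.92 (Spearman's rho 0.77; a description from reads of the same libraries). The level was -0.0324 ± 0.0744 (SD, n = 15) in high-score and 0.0406 ± 0.136 (n = 15) in low-score tumors, a difference of -0.0730 that did not pass (permutation test, two-sided, p = 0.0775, adjusted over 20 chromosomes 0.388). Without the low scaling factors it was -0.112 (permutation test, p = 0.0121, adjusted p = 0.110). Without the 7 libraries it was -0.0643 (adjusted p = 0.433), and chromosomes 6, 15 and 19 passed, with differences of 0.0246, 0.0290 and 0.0226 (permutation test, adjusted p = 0.0494 for each). By introns the difference was -0.0933 (permutation test, p = 0.00577, adjusted p = 0.115). Levels above 0.1 occurred in 1 high-score tumor (methylparaben replicate 10, at 0.194), 5 low-score tumors and 3 middle tumors, and the highest were propylparaben replicate 15 (0.321) and methylparaben replicate 4 (0.274), both low-score tumors.

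**Figure D5:**
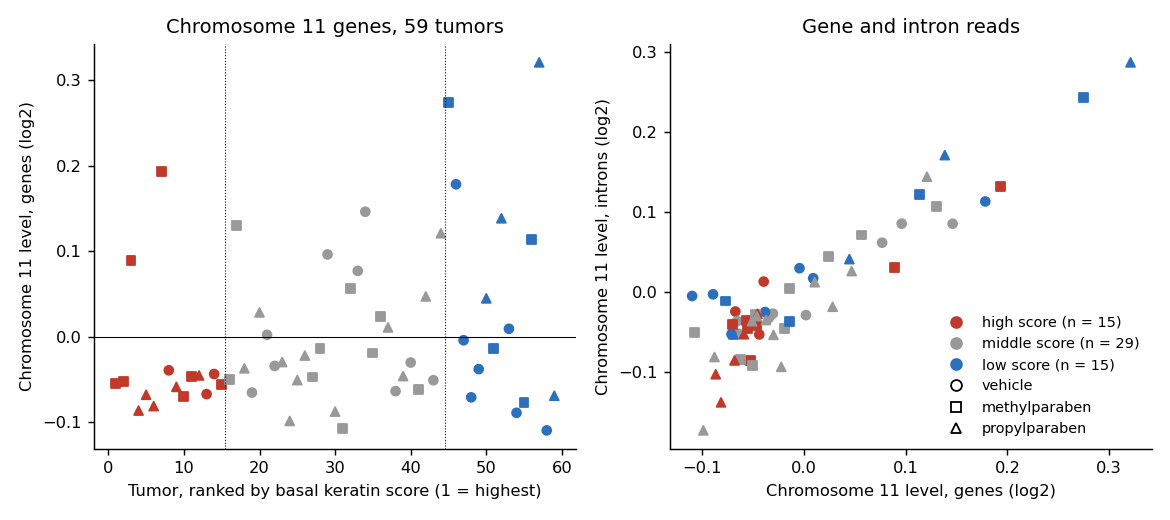
Chromosome 11 level of each of 59 tumors against the score rank (left), and from gene reads against intron reads (right), on a log2 scale with color for the score group and symbol for the treatment. 13 of 15 high-score and 8 of 15 low-score tumors lie below 0, and the low-score tumors spread from -0.110 to 0.321.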

How the data were processed

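RNA of 59 tumors was measured by RNA sequencing. The submitters' processing notes list the programs bcl2fastq 2.20.0.422, STAR 2.6.1d (alignment) and HTSeq 0.10.0 (counting) and the build GRCm38; annotation, strand setting and the tool behind the scaling are not given here. The deposited values are a signal, normalized counts per gene and, in a separate table, per intron set; 100.0% of the gene values were whole multiples of 1 factor per library (within 1e-06), so reads were recovered. Depth is the sum of those reads, 1166502 to 2032789 per library (mean 1595227), and limits precision for low genes (median SE 0.15 on the log2 scale). Per-library summary lines of HTSeq gave the shares outside features and at several places and stayed out of the tests.

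For the tests, 1 was added to each value, the log2 was taken, and limma 3.58.1 (with trend, R 4.3.3) was fitted on the 30 extreme tumors, with the treatment label as covariate, over genes with a mean of at least 1. Benjamini-Hochberg adjustment ran over all 14537 of them, the 4 score genes included. No test result is given for the score genes, which made the groups, but their p-values entered the ranks behind the adjusted p of the other genes. Fold changes on this scale understate those of low genes. Permutation tests used 100000 resamples. Alternatives included the count tests of edgeR 4.0.16 and DESeq2 1.42.0 on recovered reads. The limma step was tested on simulated data. Named genes were fixed genes, the 12 largest changes per direction among called genes with a mean of at least 5, up to 4 called members of each list (otherwise the 2 with the smallest p), and the 10 genes most like the score; not every gene so chosen is printed, and 1 gene that passed is not reported here. The members, lists and tests were chosen with earlier results of these data known. Gene positions are from GENCODE M21, and promoter sequences from RefSeq.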

Additional observations from a re-analysis of the deposited data

How the results depend on the processing

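Against 12 genes outside the score as reported, 6 passed with a mean of at least 10, 28 with quantile normalization, 52 with no covariate, 77 with array weights, 92 with all 59 tumors in the fit, 57 with 10 tumors a group, 352 with the score as a continuous measure, 160 and 270 with the score without Krt14 and without Krt17, 5 with 6 tissue scores and 44 with the mitosis score as covariate, and 82 with DESeq2 (18 with edgeR). Chosen after seeing the data, 5 passed without the libraries with a scaling factor under 0.9, 90 without the 7 libraries on the first principal component, 103 without both sets, and 28 with that component as covariate. Leaving out each tumor in turn gave 8 (without methylparaben replicate 1) to 56 genes (without vehicle replicate 11); counts moved by over 1.5 times also without vehicle replicates 5 (49), 10 (26), 14 (36), 16 (22) and 19 (19), methylparaben replicates 5 (29) and 10 (19) and propylparaben replicate 20 (20). The 11 genes named above kept their direction in each alternative that tested them; in 78 of 632 such fits they no longer passed. Of the introns, 2 as reported, 0 passed with a pseudocount of 0.5, 1 with a mean of at least 10, 4 with no covariate, 5 without the low scaling factors and 4 without the 7 libraries. Without the low scaling factors the mitochondrial share differed by -0.368 points (adjusted p = 0.247) and the scaling factor by 0.0147 (adjusted p = 0.653), and differences in depth (-25030 reads), reads outside features (0.511 points) and intronic reads per 100 gene reads (0.706) turned sign. Among genes that had not passed, Krt10 turned to -0.022 with the skin score as covariate, Mki67 to 0.12 and Col1a1 to -0.11 with the score without Krt5, and Col1a1 to -0.14 with 6 tissue scores. Krt10 is a member of the skin list and Col1a1 of the fibroblast list, so these covariates partly adjust each gene for itself. The differences of Esr1 (-0.46 to 0.21), Pgr (-0.53 to 0.18), Gata3 (-0.23 to 0.41), Csn2 (-0.38 to 0.80), Elf5 (-0.01 to 0.18) and Egfr (-0.10 to 0.28), given above by level, also turned sign across alternatives, and none passed in any. The causes were not tested. The score by treatment and the make-up of the groups stayed on their side of the threshold. No paired analysis was possible because the replicate numbers only follow the order of the records and the labels give no link between tumors of different groups.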

Other observations

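Lists not described above held no gene that passed between the groups (limma, background 0.0826%). Their counts above 0 stand beside 48.4% of all tested genes. Of 11 tested genes of the Wnt pathway 7 lay above 0 (median 0.16). Wnt6, a ligand, ran from 0 to 7.47 (median 1.14) in high-score and from 0 to 1.17 (median 0.428) in low-score tumors, and 7 high-score tumors lay above the low group (log2 0.56 ± 0.22, limma, adjusted p = 0.367). Znrf3, a ubiquitin ligase that removes Wnt receptors, had medians of 20.995 in high-score and 21.11 in low-score tumors (log2 -0.37 ± 0.15, limma, adjusted p = 0.365). Of 10 ligands and receptors of the epidermal growth factor family 5 lay above 0 (median 0.01), and the ligand gene Ereg differed by 0.49 ± 0.22 (limma, adjusted p = 0.424).

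Interferon response genes lay above 0 for 9 of 10 (median 0.10) and hypoxia genes for 3 of 12 (median -0.12). Neither direction held throughout: 4 of 10 interferon genes lay above 0 with Krt17 left out of the score, and 10 of 12 hypoxia genes with Krt5 left out. Vessel genes lay above 0 for 7 of 10 endothelial and 2 of 7 pericyte genes, neutrophil genes for 0 of 5, T and NK cell genes for 3 of 5 and B and plasma cell genes for 3 of 3. With Krt5 left out of the score 4 of 10 endothelial and 1 of 5 T and NK cell genes lay above 0, and with Trp63 left out 1 of 4 B and plasma cell genes did. No sebaceous gland gene reached a mean of 1, and of 8 salivary gland genes 2 did.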
